A study of Homo sapiens with 267 samples.

Results

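The genes described here are 43 genes of the G1/S transition and of DNA replication that were listed by name. A row of the count table was found for 42 of them among 63677 genes, and UHRF1 was not matched. The libraries came from K562, an established human leukaemia line, captured on the C1 system, which converts the RNA of single cells to cDNA in microfluidic sites. Counts were matched to 263 of 267 labelled libraries.

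All cells were K562 (CCL-243) grown in RPMI medium with serum, and the libraries fell into 5 groups by run and label. The Hoechst run held 96 untreated libraries, stained with Hoechst at 2 µM and propidium iodide at 3.75 µM for 20 min, with the passages field of the labels reading 90-92 hours. In the benzene run, 38 libraries were labelled CellTracker Green and untreated, of which 36 had counts, and 37 were labelled CellTracker Orange and benzene (10 mM for 3 h), of which 35 had counts. In the imatinib run, 51 libraries were labelled CellTracker Green and untreated and 45 CellTracker Orange and imatinib (1 µM for 1 h). CellTracker was at 1 µM for 30 min in both of these runs, together with the LIVE/DEAD Fixable Red stain, and their passages field read 20-22 hours. Imatinib inhibits BCR-ABL, the fusion kinase that K562 carries. The dye went with the drug in each run, so dye and drug cannot be told apart. Each run also held cells that were DSP-fixed and stored, and bulk samples, which the labels do not mark, so their part in any value below was not tested. According to the methods, propidium iodide positive cells were sequenced in the Hoechst run while dead cells were not in the other runs, and the Hoechst run used another lot of cells.

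Each run and label is 1 culture sample, so the differences between groups below have no replicate check and carry no p-value, and the spread given is over libraries. A library was kept where its 500 most abundant genes took at most 70% of its reads, which gave 242 (82 of the Hoechst run, 31 Green and 34 Orange of the benzene run, 50 Green and 45 Orange of the imatinib run). These had 50358 to 2043351 reads on genes, with a median of 1283280, and median numbers of genes with more than 2 reads from 5859.5 to 8082 by group. Of 10 K562 markers, PRAME, HBE1 and TFRC had more than 2 reads in 100% of libraries and GATA1 in 97.5%. Of the 10 markers of other cell types measured, MS4A1 and LUM passed 2 reads in 0% of libraries and CD3E in 0.413%, whereas CD3D did so in 50% and LYZ in 68.6%. The summed level of these 10 markers had a median of 113 CPM (counts per 1000000 reads on genes) in the Hoechst run and of 23.8 to 33.7 CPM in the other groups. Its part in the differences between runs was not tested.

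In late G1, cyclin E and CDK2 release E2F transcription factors from the retinoblastoma protein, and E2F turns on genes for the machinery of S phase. CDC6 loads the MCM2 to MCM7 ring on origins, geminin (GMNN) blocks reloading, and CDC45 and the GINS complex turn the ring into the moving helicase. PCNA, its loader, the polymerases and FEN1 then copy the DNA, while TYMS, RRM1 and RRM2 supply nucleotides. K562 lacks functional p53 and divides continuously in culture.

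To show the kind of upstream sequence these genes share, promoter windows from RefSeq (GRCh38.p14) were searched for 4 written forms of the E2F site, TTTCGCGC, TTTGGCGC, TTTCCCGC and TTTGCCGC, on both strands. The windows ran from 250 bases before to 50 after the start. A form was present in 18 of the 34 member windows (52.94%), against 3.325% of 27305 windows of all genes. At least 2 matches, which may overlap, stood in 6 of the 34 member windows (17.65%), namely those of MCM2, MCM3, MCM6, MCM7, E2F1 and HELLS, against 0.1538% of all windows. The stretches below are shown because MCM6, MCM3 and CDC45 had the highest correlations with the other members after MCM4, which is not shown, and RRM1 the lowest among members with a window. Each is the strand of the gene from 250 bases before the start to 10 after it. Capitals mark matches to the forms, and in MCM6 the 4 matches are 2 stretches that each read as a site on both strands.
MCM6 (chr2:135876434-135876693, minus strand): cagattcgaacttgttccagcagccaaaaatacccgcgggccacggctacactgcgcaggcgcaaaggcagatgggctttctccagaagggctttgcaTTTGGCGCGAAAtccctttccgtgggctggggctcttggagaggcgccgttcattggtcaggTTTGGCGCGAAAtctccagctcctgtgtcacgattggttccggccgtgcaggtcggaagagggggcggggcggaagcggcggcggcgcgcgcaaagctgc
MCM3 (chr6:52284733-52284992, minus strand): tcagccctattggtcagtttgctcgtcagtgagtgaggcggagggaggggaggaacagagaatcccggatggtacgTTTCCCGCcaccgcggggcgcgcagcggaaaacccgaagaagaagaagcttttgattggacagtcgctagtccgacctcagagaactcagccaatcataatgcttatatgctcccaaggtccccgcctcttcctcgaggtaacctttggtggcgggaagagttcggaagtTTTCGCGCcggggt
CDC45 (chr22:19479670-19479929, plus strand): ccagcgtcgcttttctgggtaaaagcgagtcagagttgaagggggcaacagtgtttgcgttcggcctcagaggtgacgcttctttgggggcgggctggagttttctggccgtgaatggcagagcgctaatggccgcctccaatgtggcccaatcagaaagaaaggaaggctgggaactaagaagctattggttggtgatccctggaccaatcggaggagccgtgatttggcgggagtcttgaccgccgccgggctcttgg
RRM1 (chr11:4094435-4094694, plus strand): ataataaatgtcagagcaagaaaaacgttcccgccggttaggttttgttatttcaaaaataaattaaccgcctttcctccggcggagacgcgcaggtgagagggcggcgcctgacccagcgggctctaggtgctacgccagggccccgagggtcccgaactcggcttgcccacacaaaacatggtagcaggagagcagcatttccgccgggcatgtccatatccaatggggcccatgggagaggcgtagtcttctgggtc
MCM6 and MCM3 held matches and CDC45 and RRM1 held none of these letters. Only exact letters were searched, so a site written otherwise is not counted. The CDC45 stretch holds tttggcgg, which differs from TTTGGCGC only in its last base. The RRM1 stretch holds gttcccgc, which differs from TTTCCCGC only in its first base. Near matches were not counted in any window. Members with a match had a median correlation with the other members of 0.199 (n = 17) and members without one of 0.161 (n = 16), as measured below.

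Most of the 42 genes were detected in most libraries, and their joint level was highest in the imatinib run. The module mean was taken as the mean over the members of log2(CPM + 1). In the imatinib run it was 6.18 ± 0.44 (SD, n = 50) in the Green and 6.05 ± 0.59 (SD, n = 45) in the Orange libraries. It was 4.90 ± 0.88 (SD, n = 31) in the Green and 5.0 ± 0.88 (SD, n = 34) in the Orange libraries of the benzene run, and 5.23 ± 0.92 (SD, n = 82) in the Hoechst run. The imatinib run thus had the highest mean levels with the smallest spread, and within each run the Green and Orange libraries overlapped over most of their range.

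**Figure D1:**
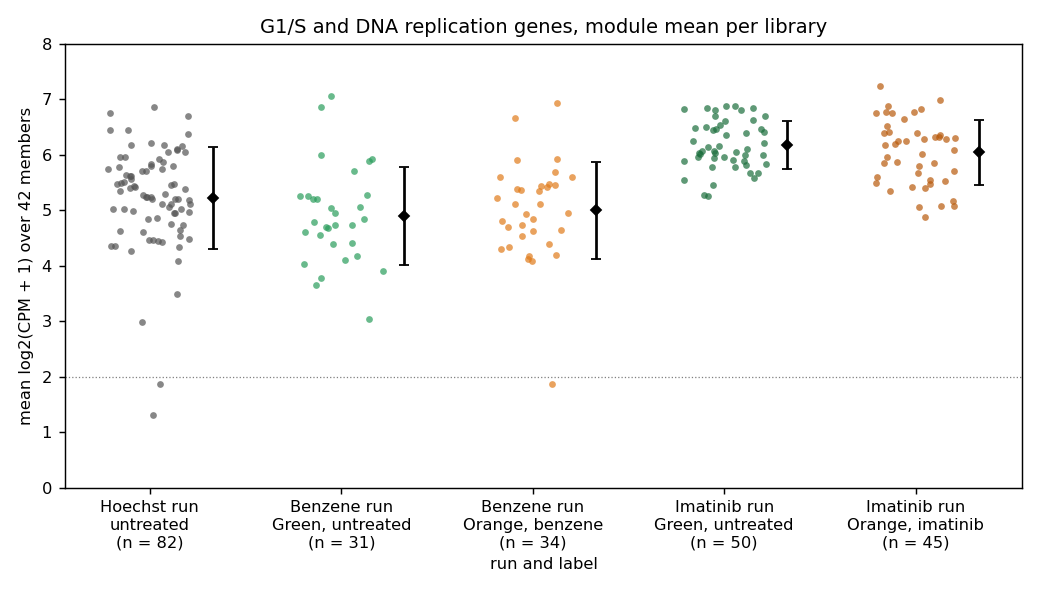
Mean log2(CPM + 1) over the 42 members in each library (1 point per library), by run and label, with the mean and SD over libraries as diamonds and bars and a dotted line at 2. The imatinib run lies highest, with means of 6.18 and 6.05, and 3 libraries of the other runs lie under 2.

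The lowest, median and highest library had module means of 1.31, 5.29 and 6.87 in the Hoechst run. They were 3.04, 4.79 and 7.06 in the Green and 1.86, 5.03 and 6.95 in the Orange libraries of the benzene run. In the imatinib run they were 5.25, 6.09 and 6.89 (Green) and 4.89, 6.17 and 7.25 (Orange). The highest single library was thus alike in all groups, but the bulk of the libraries was not. The upper quartile was 5.80 in the Hoechst run and 5.26 and 5.46 in the benzene run (Green, Orange). These lay below the lower quartile of the imatinib Green libraries (5.90), while that of the imatinib Orange libraries was 5.55. In the benzene Orange libraries the highest value was that of replicate 92, with 11293 genes detected. Replicate 94 followed at 6.67, with 11773 genes. The next highest was replicate 51 at 5.92, with 7305 genes, so without replicates 92 and 94 the highest value of this group was lower too. Of the 42 members, a median of 36 had more than 2 reads per library in the Hoechst run, 33 and 34 in the benzene run (Green, Orange) and 38 and 39 in the imatinib run. With each library thinned to 500000 reads these medians were 34, 29, 31, 37 and 37, in the same order. Members with more than 2 reads in at least 50% of libraries numbered 39, 35, 38, 41 and 40.

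The module mean moved with the number of genes detected in a library, with a Spearman correlation of 0.52 to 0.69 in the 5 groups. It ran against the ERCC spike-in share (-0.67 to -0.41) and the mitochondrial share (-0.56 to -0.11) of the reads. Levels per cell and the amount of RNA recovered cannot be told apart in such values. The 16 libraries with over 9500 genes, a number that bulk samples would give, had module means from 5.87 to 6.95. With all groups pooled, these values lay inside the range of the other libraries. Within the benzene run they lay at the upper end. Orange replicates 92 and 94 (6.95 and 6.67) were above every other Orange library (highest 5.92). Green replicate 93 (6.86) was below replicate 25 (7.06) and above the next Green library (5.99).

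In 3 libraries the module was far lower than in the rest. Replicates 2 and 4 of the Hoechst run and replicate 26 of the benzene Orange libraries had module means of 1.31, 1.87 and 1.86, while the next lowest library of all stood at 2.98. They had more than 2 reads on 10, 14 and 16 of the 42 members, although 6446, 6759 and 5559 genes were detected in them at 1020817, 822477 and 1398490 reads. PCNA, the sliding clamp, was at 0, 0 and 1.43 CPM, against group medians of 162 (Hoechst run) and 209 (benzene Orange). MCM7 was at 0.98, 81.5 and 5.01 CPM, against medians of 630 and 1203.

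The G2/M genes were low in the same 3 libraries. Their mean log2(CPM + 1) over 39 genes was 0.88, 0.73 and 1.62, against group means of 5.48 and 4.80, and 6, 6 and 13 of the 39 had more than 2 reads. TOP2A, a topoisomerase of dividing cells, was at 0, 0 and 7.15 CPM, against group medians of 473 and 449.7. MKI67, a proliferation marker, was at 0, 0 and 83.7 CPM, against medians of 262 and 93.2, so the benzene run library was near its group for this gene. PRAME, the K562 antigen, was at 7203, 5938 and 3803 CPM, each above its group's median of 2807 or 3186. The erythroid factor GATA1 was at 687, 80.2 and 286 CPM, against medians of 336 and 294. HBG2, a fetal globin gene, was at 0, 813 and 3334 CPM, against medians of 1539 and 2536. PRAME was thus above the median in each of the 3, while GATA1 and HBG2 were higher in 1 and lower in 2 of them. Over the 3 libraries, 18 members were detected in none, 11 in 1, 10 in 2 and 3 in all of them. The last were NASP, RRM1 and TYMS, chosen here after their values were seen, with NASP at 311, 197 and 45.8 CPM. Mitochondrial shares were 8.27%, 9.59% and 5.99%, against group medians of 12.5% and 6.21%.

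Of the MCM2 to MCM7 genes, which encode the ring of the replicative helicase, MCM7 and MCM3 were among the most abundant members per length. MCM7 had the highest level of all members at 302 RPKM (CPM of the summed counts per kilobase of exon), averaged over groups, followed by CDC45 at 179.8 and MCM3 at 174. MCM6 (48.9), MCM5 (38.1), MCM4 (35.3) and MCM2 (33.1) were well below these and below PCNA (171), RPA2 (167) and FEN1 (152). MCM7 (chr7:99689856-99699563 on GRCh37) ran from 0.98 to 3399 CPM over the Hoechst libraries, with a median of 630. In the benzene run its lowest, median and highest CPM were 175, 1172 and 3562 (Green) and 5.01, 1203 and 4589 (Orange). In the imatinib run they were 499.6, 1963 and 3845 (Green) and 479, 2235 and 5099 (Orange). The quartiles of the Hoechst run (294 to 1080 CPM) lay below those of the imatinib Green libraries (1342 to 2544 CPM).

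MCM3 and MCM4 also had their highest medians in the imatinib run. MCM3 had medians of 333 CPM in the Hoechst run, 328 and 366 in the benzene run and 727 and 866 in the imatinib run. MCM4 had medians of 252, 227, 184, 434 and 413 CPM. Both had more than 2 reads in at least 96.8% of the libraries of each group. MCM2, MCM5 and MCM6 were less even. MCM2 had medians of 27.4 CPM in the Hoechst run, 85.5 and 58.2 in the benzene run and 107 and 123 in the imatinib run, with 0 reads in some libraries of 4 of the 5 groups. MCM5 had medians of 74.3, 123, 31.6, 246 and 369 CPM, and 1 library held 31.7% of its reads among the benzene Orange libraries. MCM6 had medians of 44.03, 120, 162, 192 and 138 CPM. As a mean over the 6 genes of log2(CPM + 1), the helicase stood at 6.64 ± 1.36 in the Hoechst run, at 7.13 ± 1.15 and 6.96 ± 1.38 in the benzene run and at 8.39 ± 0.70 and 8.48 ± 0.71 in the imatinib run (SD over libraries, Green then Orange).

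Among the 4 genes of licensing and firing, CDC6, the loader of the ring, had medians of 22.6 CPM in the Hoechst run, 36.5 and 53.01 in the benzene run and 165 and 141 in the imatinib run. It had more than 2 reads in 71.95% of Hoechst libraries (95% interval 60.9% to 81.3%, exact binomial) and in 98.0% of imatinib Green libraries (89.4% to 99.9%). GINS2, a GINS subunit, went the same way, with medians of 16.8, 60.95, 156, 257 and 181 CPM and detection from 70.7% to 97.8%. CDC45 had medians of 197, 331, 408, 548 and 625 CPM. GMNN, the inhibitor of loading, had medians of 123, 53.6, 95.1, 146 and 129 CPM, so the Hoechst run was close to the imatinib run for this gene. These intervals cover counting error over libraries only.

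At the replication fork, PCNA differed little by run. Its lowest, median and highest CPM were 0, 162 and 887 in the Hoechst run, 0, 195 and 939 in the benzene Green, 0.69, 209 and 791 in the benzene Orange, 23.4, 199 and 806 in the imatinib Green and 64.7, 227 and 599 in the imatinib Orange libraries. The groups overlapped throughout. RPA2, a subunit of the single-strand binding protein, had medians of 89.5 CPM in the Hoechst run against 343 in the imatinib Green libraries, and FEN1, the flap endonuclease, of 82.9 against 421. DSCC1, of an alternative clamp loader, had more than 2 reads in 22.6% of benzene Green libraries and in 50% to 66% of the libraries of the other groups. POLA1, the catalytic subunit of polymerase alpha, was detected in 48.4% and 58.8% of benzene run libraries and in 80.5% to 98.0% elsewhere.

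Of the nucleotide genes, RRM1, the large subunit of ribonucleotide reductase, differed little by run, with medians of 193, 263, 187, 294 and 269 CPM and detection in 98.8% to 100% of libraries. RRM2, its small subunit, had a lowest, median and highest CPM of 0, 89.9 and 1286 in the Hoechst run. In the benzene run these were 0, 101 and 1064 (Green) and 0, 56.8 and 549 (Orange), and in the imatinib run 0, 184 and 567 (Green) and 25.9, 195 and 654 (Orange). TYMS, thymidylate synthase, had its highest median in the Hoechst run (72.6 CPM, against 46.2 to 54.6 in the other groups). Other counted genes overlap 47.9% of the exon length of TYMS, among them ENOSF1 and TYMSOS, 37.1% of that of CCNE2 and 21.1% of that of TIPIN, and the kit marks no strand, so these values are uncertain.

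The chromatin genes held NASP, a histone chaperone detected in 100% of the libraries of every group, with medians of 435, 299, 498, 658 and 661 CPM. ATAD2, a chromatin ATPase with a bromodomain, had medians of 108 CPM in the Hoechst run, 33.8 and 75.5 in the benzene run and 105 and 69.5 in the imatinib run. Its quartiles were 55.4 to 228 CPM in the Hoechst run and 8.10 to 88.7 CPM in the benzene Green libraries. SLBP, which binds the stem-loop of histone mRNA, was detected in 95.1% of Hoechst libraries but in 74.2% and 61.8% of those of the benzene run.

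Among checkpoint and repair genes, CLSPN, the checkpoint mediator claspin, had medians of 241, 115, 83.7, 228 and 213 CPM. BRIP1, a helicase that partners BRCA1, had the lowest level per length of all members (0.95 RPKM), before CCNE2 (1.83 RPKM) and E2F1 (3.17 RPKM). E2F1, an activator among the E2F factors, had more than 2 reads in 28.05%, 12.9%, 14.7%, 42% and 28.9% of the libraries of the 5 groups (Hoechst, benzene Green and Orange, imatinib Green and Orange), with a highest value of 306 CPM. E2F8, a repressor of the family, was seen in 48.8%, 29.03%, 35.3%, 70% and 68.9%. CCNE2, which encodes a cyclin E, was seen in 34.1%, 25.8%, 41.2%, 62% and 55.6%. DTL, a substrate receptor of a ubiquitin ligase of S phase, was by contrast detected in 80.6% to 100%.

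**Figure D2:**
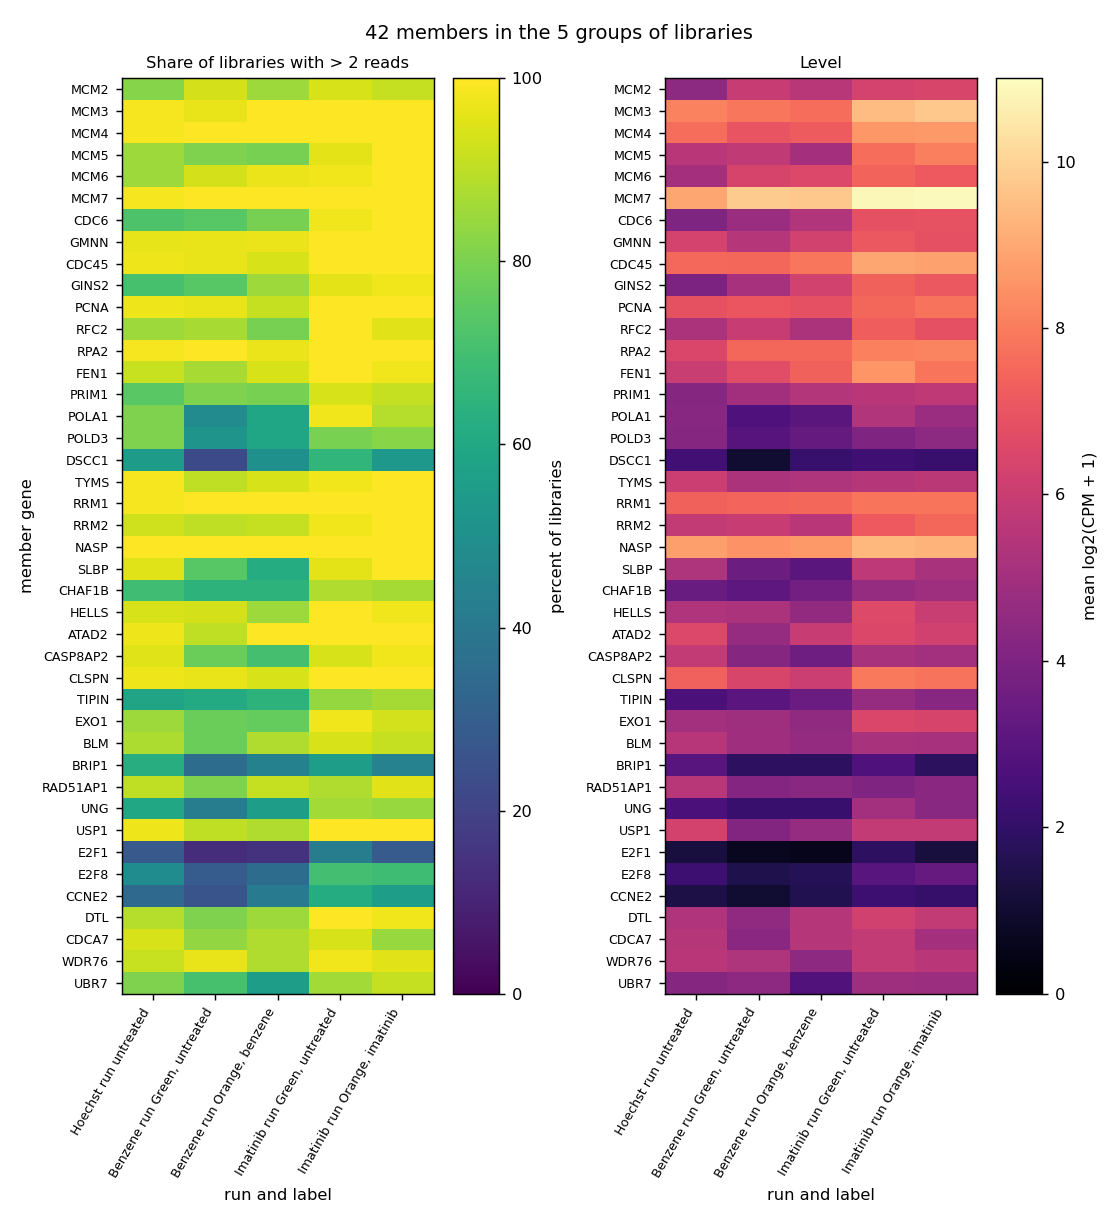
Left, the percent of libraries with more than 2 reads on each of the 42 members, and right, the mean log2(CPM + 1) of each member, in columns for the 5 groups. E2F1, CCNE2, DSCC1 and BRIP1 are among the darkest in all groups, and MCM7, MCM3 and NASP are bright in all, most of all in the imatinib run.

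The first drug comparison asked whether the members differed between imatinib Orange libraries and untreated Green libraries of the same run. The module mean was lower by 0.13 in the imatinib libraries, within the SD over libraries of either group, and the median difference over all genes tested was -0.04. A gene was called past a 2-fold ratio of CPM of the summed counts (pseudocount 1), among genes with more than 2 reads in at least 20% of libraries of either group. By this rule 0 of 42 members were higher and 1 was lower, against 3.76% and 4.30% of 11416 genes, with no test since each group is 1 sample. The 1 was BRIP1, at 7.50 CPM against 20.3 (log2 ratio -1.32, and between -1.55 and -1.13 with any 1 library left out, but -0.92 as the equal-weight difference of mean log2(CPM + 1)). Its median CPM was 1.06 in the imatinib and 3.85 in the untreated libraries, and their ranges (0 to 67.2 and 0 to 255) overlapped.

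The other members were short of 2-fold, and 18 of the 42 (42.9%) had a log2 ratio above 0, against 47.4% of 11416 genes. MCM3 had 979 CPM against 796 (log2 ratio 0.30), MCM7 had 2179 against 1974 (0.14), PCNA had 248 against 229 (0.11) and RRM2 had 225 against 193 (0.22). The highest ratio was that of E2F8, at 34.7 CPM against 19.2 (0.82). UNG, which removes uracil from DNA, had 56.2 against 77.8 (-0.46), SLBP 60.4 against 81.1 (-0.42) and FEN1 347 against 455 (-0.39). By the equal-weight difference 0 members were past 1 in either direction, against 0.841% of genes higher and 1.45% lower, with CDCA7 at -0.81 and FEN1 at -0.75. E2F1 was at 10.8 CPM against 17.5 (-0.65), and 1 library held 49.1% and 39.2% of its reads in the 2 groups. The median log2 ratio of the members was -0.05 and that of all genes -0.02. Of the other lists, 0 of 38 further replication genes were past 2-fold in either direction. Among 19 tested G1/S regulators E2F7 was higher and CDKN1B, an inhibitor of CDK2, lower. Among 39 G2/M genes UBE2C was lower.

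In the benzene run the module mean of the Orange libraries was higher by 0.10 than that of the Green, within the SD, with a median of 0.09 over all genes. Of 41 members tested (E2F1 did not pass the filter), 1 was past 2-fold higher and 2 lower, against 12.9% and 10.9% of 10072 genes. With equal weight 5 were higher by more than 1 (ATAD2, GINS2, CDCA7, DSCC1 and DTL) and 1 lower (UBR7), against 5.23% and 2.88% of genes. By sums, DSCC1 was higher (20.6 against 7.19 CPM, log2 ratio 1.40), but 0.85 without replicate 38 of the Orange libraries. EXO1, an exonuclease of repair, was lower (103 against 216 CPM, -1.06), but -0.21 without replicate 69 of the Green libraries, which held 46.5% of its reads, and -0.39 by the equal-weight difference. UBR7, a protein of the UBR ubiquitin ligase family, was lower (28.6 against 81.2 CPM, -1.47, and -1.74 to -1.31 with any 1 library left out). Its median was 2.49 CPM in the benzene and 44.3 CPM in the untreated libraries, and their ranges (0 to 174 and 0 to 322) overlapped. CDC6 had 236 CPM against 129 (log2 ratio 0.87) and RRM2 115 against 182 (-0.66), short of 2-fold. Of 38 other replication genes 4 were higher (POLA2, POLE2, ORC5, MCM8) and 6 lower, among them POLE, MCM10, CHAF1A and TIMELESS. Among 19 G1/S regulators 2 were higher and 5 lower, and among 38 G2/M genes 0 were higher and 2 lower.

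The comparisons of runs below set untreated libraries side by side and share groups, so they are not independent. Run, cell lot, stain, sequencing lane, the passages field and the mixture of fresh and fixed cells cannot be told apart in them. According to the methods, the Hoechst run also had another sequencing instrument and another read length than the other runs. In the Hoechst run against the Green libraries of the imatinib run, the module mean differed by -0.95, the median of all genes by -0.18 and the mean of the G2/M genes by 0.00 (5.48 against 5.47). On the equal-weight mean of log2(CPM + 1), 33 of 42 members and 57.5% of 11719 genes were lower in the Hoechst run. By summed counts, 4 of 42 members were past 2-fold higher and 10 lower, against 20.6% and 13% of all genes tested. By the equal-weight difference, 1 of 42 was higher by more than 1 and 19 lower, against 10.2% and 21.1% of genes.

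Those lower were 4 helicase genes and members of licensing, fork and repair. MCM2 had 75.1 CPM against 183 (log2 ratio -1.28), MCM5 159 against 357 (-1.16), MCM6 106 against 226 (-1.09) and MCM7 794 against 1974 (-1.31). CDC6 had 65.6 against 177 (-1.42) and GINS2 64.4 against 246 (-1.92). FEN1 had 144 against 455 (-1.65), RPA2 170 against 375 (-1.14) and UNG 19.5 against 77.8 (-1.94). TIPIN, of the fork protection complex, had 22.2 against 45.8 (-1.01, and -0.92 without replicate 82 of the Green libraries). By role, the equal-weight differences of the means were -2.11 for licensing and firing, -1.74 for the helicase, -1.14 for the fork and -0.75 for the regulators. They were -0.48 for checkpoint and repair, -0.45 for chromatin, -0.42 for the remaining members and -0.40 for nucleotide supply. Single members crossed this order, with RRM2 at -1.29, MCM4 at -0.95 and GMNN at -0.79.

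Those higher in the Hoechst run were RAD51AP1, a gene of DNA repair (106 against 29.8 CPM, log2 ratio 1.80), and BLM, a RecQ helicase (156 against 59.3, 1.38). CASP8AP2, needed for histone mRNA processing, was higher (126 against 58.3, 1.09, and 0.92 without replicate 39 of the Hoechst run), as was DSCC1 (20.0 against 9.15, 1.05, and 0.79 without replicate 34). By the equal-weight difference RAD51AP1 stood at 1.502, BLM at 0.36, CASP8AP2 at 0.69 and DSCC1 at 0.06. CD3D, a marker of another cell type, moved with the run (134 CPM in the Hoechst run, 9.94 in the imatinib Green libraries), and its part was not tested.

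In the Hoechst run against the Green libraries of the benzene run, the module mean was 0.33 higher and the median of all genes 0.62 higher. Of 42 members, 5 were past 2-fold higher and 6 lower by summed counts, against 26.7% and 11.8% of 11052 genes. By the equal-weight difference 10 were higher by more than 1 and 3 lower, against 31.8% and 4.89% of genes, and 27 of 42 were above 0, against 75.5% of genes. ATAD2 was higher (179.6 against 55.02 CPM, log2 ratio 1.69), as were USP1, a deubiquitinase of repair (131 against 49.2, 1.39), E2F1 (9.75 against 2.89, 1.47), DSCC1 (20.0 against 7.19, 1.36) and RAD51AP1 (106 against 45.9, 1.19). MCM6 was lower (106 against 274 CPM, -1.37). The other 5 called lower each fell short of 2-fold without 1 library of the benzene run. These were MCM2 (-1.14, and -0.94 without replicate 49), GINS2 (-1.14, and -0.97 without replicate 13), RPA2 (-1.08, and -0.99 without replicate 50), FEN1 (-1.23, and -0.98 without replicate 48) and EXO1 (-1.03, and -0.18 without replicate 69). With equal weight E2F1 stood at 0.58, EXO1 at 0.13, FEN1 at -0.75 and RPA2 at -0.997, all short of 1.

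Between the untreated Green libraries of the benzene and imatinib runs, which share dye, passages field and chemistry, the module mean was lower by 1.28 in the benzene run, and the median of all genes by 0.75. On the equal-weight mean, 41 of 42 members were lower, against 82.6% of 11098 genes, and the exception was RAD51AP1 (4.21 against 4.08). By summed counts, 0 members were past 2-fold higher and 3 lower, against 11.9% and 19.9% of genes. With equal weight 0 members were higher and 29 lower by more than 1, against 2.19% and 38.9% of genes. The members called lower by sums were ATAD2 (55.02 against 120 CPM, log2 ratio -1.11), UNG (21.7 against 77.8, -1.79) and E2F1 (2.89 against 17.5, -2.25, with 52.5% and 39.2% of its reads in 1 library of each group). A sum gives weight to a few high libraries, and a mean of logs to libraries near 0. MCM6 had 274 CPM against 226 by sums (log2 ratio 0.28) but medians of 120 against 192 CPM, with 19.4% of its reads in 1 benzene Green library.

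**Figure D3:**
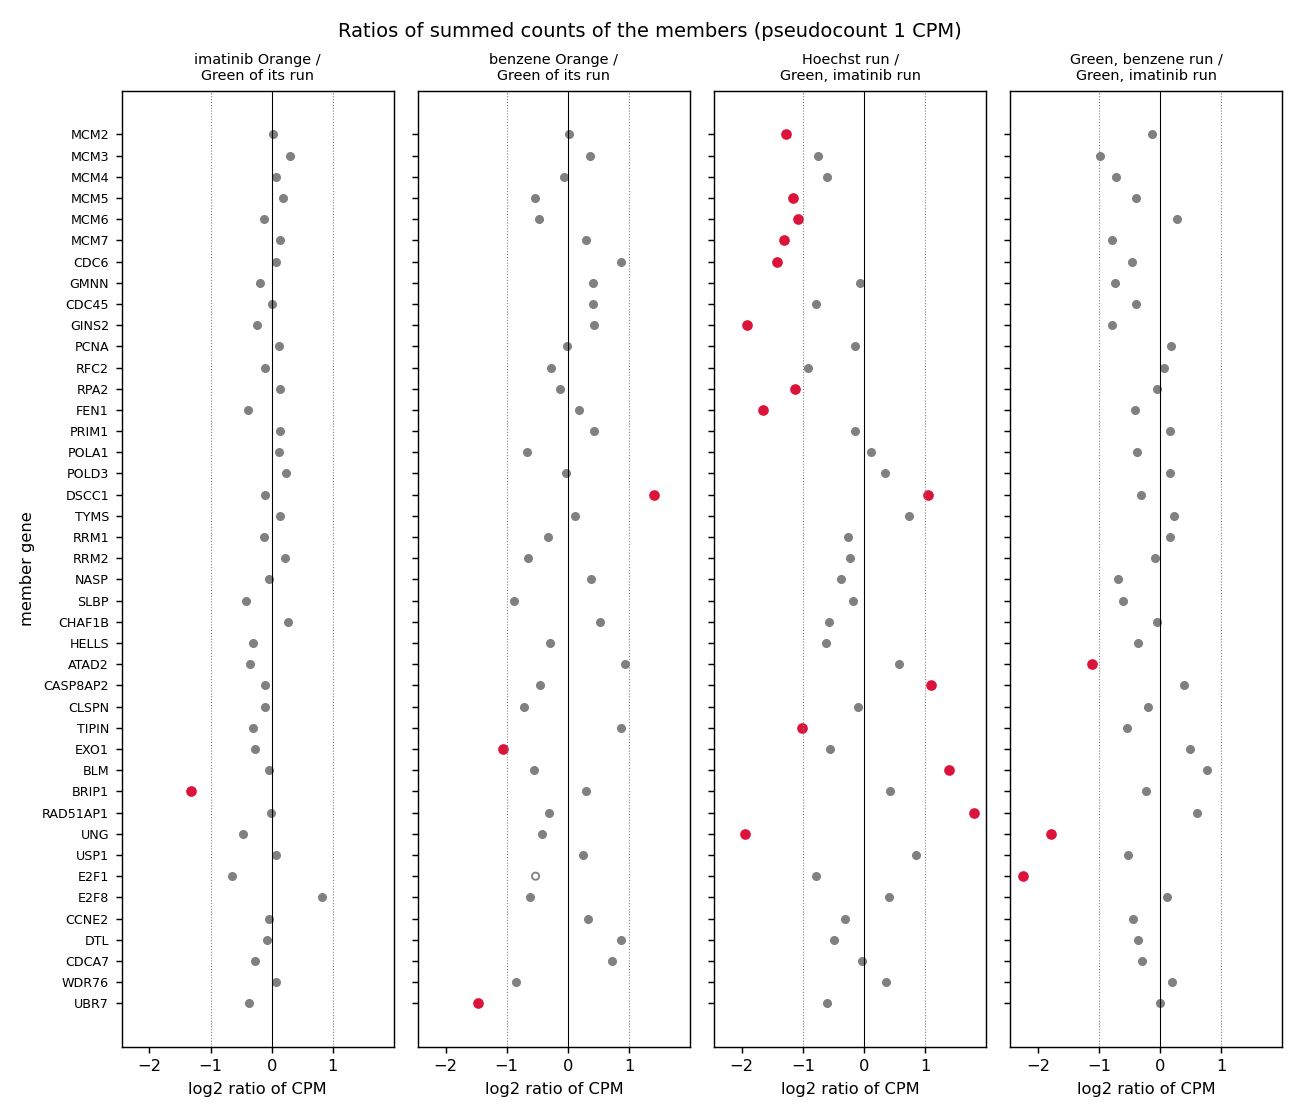
Log2 ratio of CPM of summed counts (pseudocount 1) for each member in 4 of the 5 comparisons, with dotted lines at 2-fold, called members in red and a member that did not pass the filter as an open circle. In the imatinib comparison BRIP1 alone lies past 2-fold, while in the Hoechst run against the imatinib Green libraries 10 members lie on the lower side.

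The list of other replication genes gave a median log2 ratio of -0.19 for the Hoechst run against the imatinib Green libraries (3 of 38 past 2-fold higher, 5 lower). The members' median was -0.34 and that of all genes 0.13. For the G2/M genes it was 0.46, with 11 of 39 higher, among them CENPE, BUB1 and HMMR, and 3 lower (UBE2C, CDC20, BIRC5), against 20.6% and 13% of all genes tested. For the G1/S regulators it was 0.12, with CDKN1A, which encodes the CDK inhibitor p21, CDKN1B and RBL2 higher and E2F4 and SKP2 lower among 20, against the same shares.

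Co-expression over libraries was measured within each group as the Spearman correlation of a member with the mean of the others, after adjustment for the number of genes detected. Libraries share run and chemistry, and the values are descriptions. The median over members was 0.25 in the Hoechst run, 0.20 and 0.17 in the benzene run (Green, Orange) and 0.11 and 0.19 in the imatinib run. Of the 41 members detected widely enough for the comparison with all genes, 21 had a correlation above 0 in all 5 groups, against 6% of 8353 genes. The median of the mean over groups was 0.187 for the members, 0.0186 for all genes, 0.108 for 37 other replication genes, 0.0854 for 18 G1/S regulators and -0.109 for 38 G2/M genes. A correlation below 0 in all 5 groups was seen for 0 of 41 members and for 8 of 38 G2/M genes, against 2.17% of genes. With no adjustment the medians were 0.136 for all genes, 0.245 for the 42 members and 0.0784 for the G2/M genes, of which 28 of 38 then had a mean above 0, and PLK1 moved from -0.29 to -0.06. The negative values of the G2/M genes thus rest largely on the adjustment. Correlations of this size are weak.

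The helicase led. MCM4 had the highest mean correlation (0.37, from 0.26 to 0.63 over groups), then MCM6 (0.33, from 0.16 to 0.51), MCM3 (0.32, from 0.20 to 0.51), CDC45 (0.31, from 0.07 to 0.59) and RRM2 (0.30, from 0.13 to 0.56). MCM7 had 0.28, MCM5 0.14 and MCM2 0.12. CCNE2, seen in 25.8% to 62% of the libraries of a group, had 0.29. The lowest were RPA2 (0.05, from -0.13 to 0.33), RRM1 (0.05, from -0.20 to 0.38), EXO1 (0.07, from -0.25 to 0.24), BLM (0.08, from -0.01 to 0.16) and NASP (0.08, from -0.11 to 0.26). PCNA had 0.14, with -0.07 in the benzene Green and 0.33 in the imatinib Orange libraries, and TYMS 0.10. RRM1 and RRM2, subunits of 1 enzyme, lay at opposite ends by the mean over groups. The order did not hold in every group, with RRM1 at 0.38 and RRM2 at 0.13 in the benzene Green libraries.

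Over 861 pairs of members the median correlation was 0.06, against 0.01 for members with other genes, and 4.41% of pairs reached 0.2, against 0.741%. The 15 pairs within the helicase had a median of 0.12 and all were above 0. The highest pairs were CDC45 with E2F8 (0.29), DTL with CDCA7 (0.29), RPA2 with CCNE2 (0.29), MCM4 with TIPIN (0.28) and MCM3 with MCM5 (0.26).

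**Figure D4:**
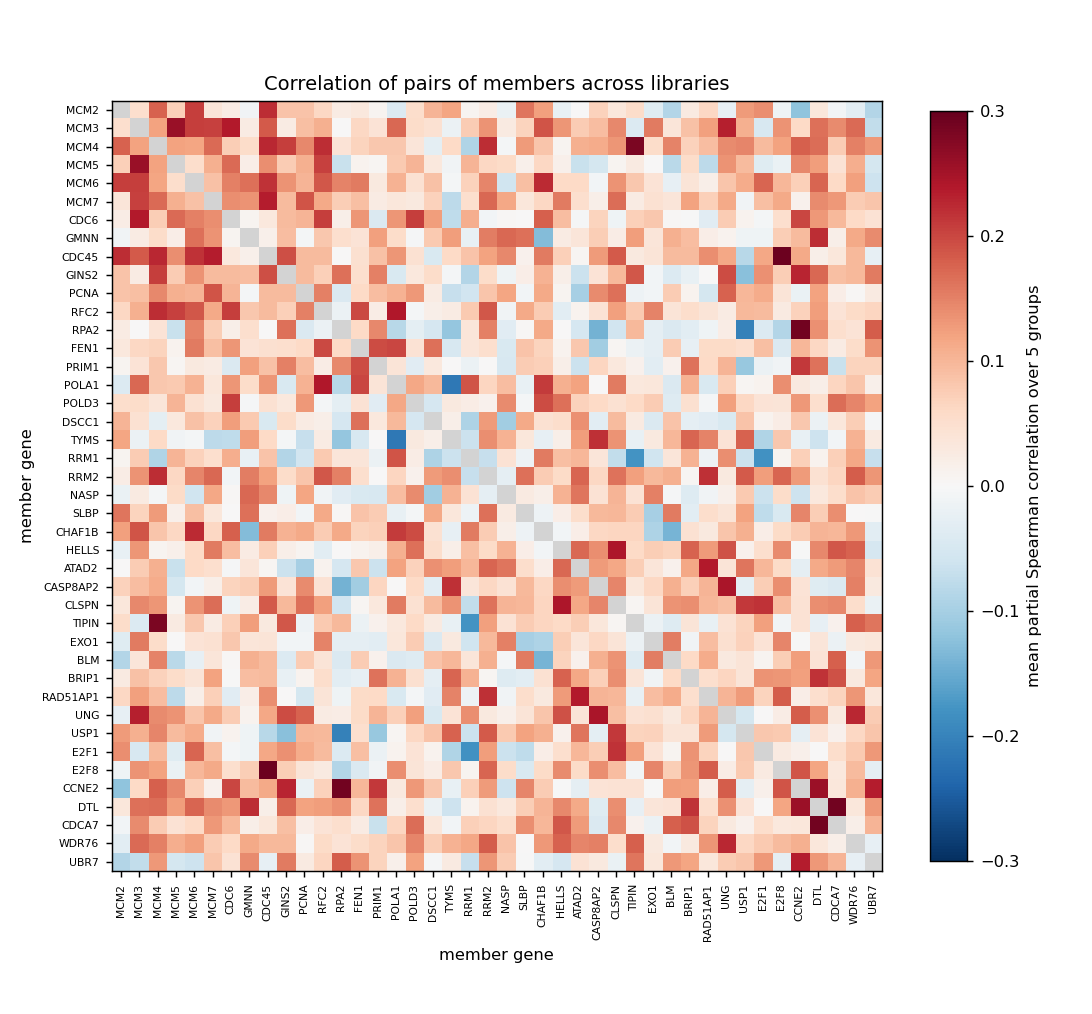
Spearman correlation of each pair of the 42 members across libraries, adjusted for the number of genes detected and averaged over the 5 groups (red above 0, blue below, diagonal in grey). The helicase genes at the upper left are red among themselves, with a median of 0.12.

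Genes outside the list with a high mean correlation to the module were FBXO5, an inhibitor of the anaphase-promoting complex (0.31), NUP210, a nuclear pore glycoprotein (0.30), WDHD1, a replisome adaptor (0.29), XRCC5, the large Ku subunit (0.27), and MSH6, of mismatch repair (0.27). SLC25A4, the histone chaperone RBBP4, E2F2 and LYSET followed (0.27 to 0.26). Each of the genes named was above 0 in the 5 groups, but NUP210 only at 0.0018 in the Hoechst run. They were picked by their mean over these same groups, so this sign is no separate support. The lowest were G2E3 (-0.31), PLK1, the mitotic kinase (-0.29), CKS2 (-0.26), CDCA3 (-0.25) and ANKRD13C (-0.24).

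The spread of the module mean was wider than independent members would give. The ratio of its variance to the summed variances of the members over the squared number of members, after regression on the number of genes detected, was 6.13 in the Hoechst run, 3.24 and 3.43 in the benzene run and 1.94 and 3.16 in the imatinib run, where independent members give 1. Without the 3 libraries with a module mean under 2 it was 3.92 in the Hoechst run and 1.53 in the benzene Orange libraries. The 39 G2/M genes had ratios of 4.98 to 8.52.

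The module mean and the G2/M mean of the same library were related differently before and after adjustment for the number of genes detected. The unadjusted Spearman correlations were 0.35 in the Hoechst run, 0.04 and 0.37 in the benzene run and 0.09 and 0.16 in the imatinib run. After adjustment they were 0.04, -0.70, -0.05, -0.39 and -0.26. The sign thus rests on the adjustment in all groups but the Hoechst run.

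**Figure D5:**
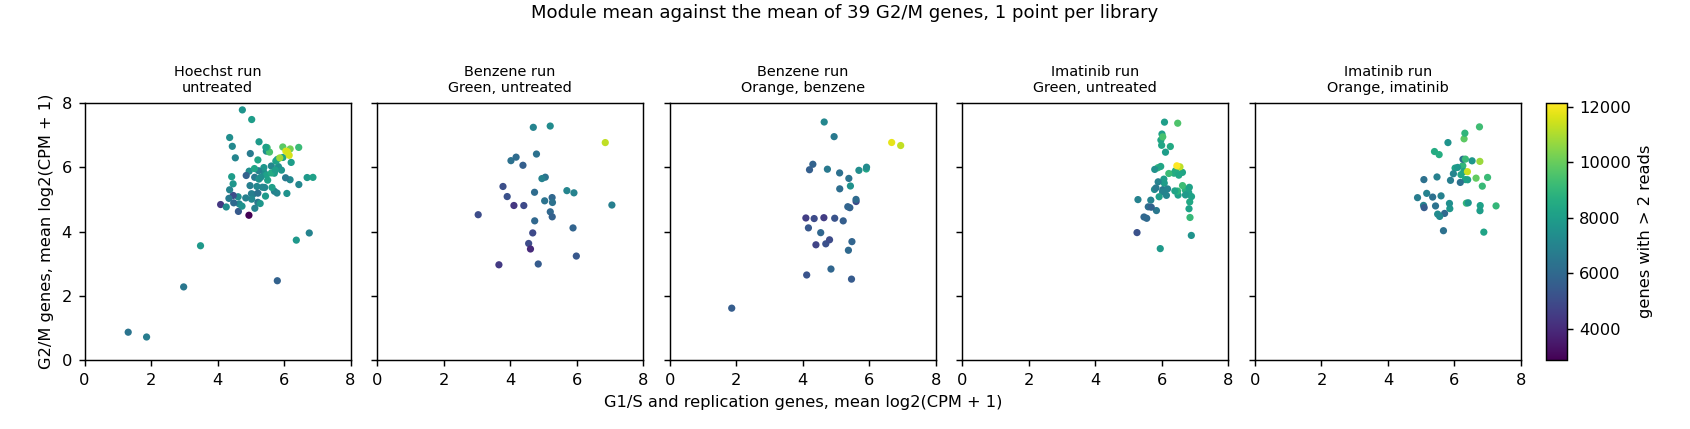
Mean log2(CPM + 1) of the members (horizontal) against that of 39 G2/M genes (vertical), 1 point per library and 1 panel per group, coloured by the number of genes with more than 2 reads. The libraries with module means of 1.31, 1.87 and 1.86 lie at the lower left of their panels, and the imatinib run has a narrow horizontal range.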

How the data were processed

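Members and lists of genes were chosen with earlier results of these data known. RNA of single K562 cells on the C1 system was made into cDNA with SMARTer chemistry and into libraries with Nextera XT. The authors trimmed reads with skewer, aligned them to GRCh37 plus ERCC spike-ins with HISAT2, marked duplicates with Picard (1.92) and counted reads on Ensembl 75 genes with featureCounts of Subread (1.5.0 in the submitters' notes). The deposited values used are whole-number read counts per gene. Whether marked duplicates were counted is not given in the sources used here. The deposited CPM table was not used.

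Counts were scaled to 1000000 reads on genes per library. A library was kept where its 500 most abundant genes took at most 70% of its reads. Columns were matched to titles, and 4 columns that matched none were not used. Gene names, coordinates and exon lengths came from GENCODE 44 lifted to GRCh37. Depth, 50358 to 2043351 reads, limits detection of rare genes, reads carry no molecular identifiers, and intervals (95%) cover counting error only. Thinning was to 500000 reads, with seed 20. Each run and label is 1 sample, so the comparisons were of summed counts past 2-fold with no test. Members named in detail were the highest and lowest by level and by correlation, those past 2-fold, and the MCM genes with PCNA, RRM2, TYMS, CCNE2, CDC6 and E2F1. Others are named as examples, and 1 gene that the rule names is not reported here. Alternatives covered the libraries kept, scaling, pseudocount, depth, filters and adjustment. Steps were tested on simulated data, in Python 3.11.15 with numpy 2.4.6, pandas 2.3.3, scipy 1.17.1 and matplotlib 3.10.9.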

Additional observations from a re-analysis of the deposited data

How the results depend on the processing

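Of 399 alternative values, 290 were planned and 109 were added after the counts were analysed. The added ones left out the 3 libraries with a module mean under 2, or each library in turn. By a limit set for each kind of value, 353 stayed the same. Of the 32 ratios past 2-fold, 10 fell short without 1 library, as given above. The 45 alternative values of the differences of the module mean stayed within 1 SD over libraries of the value reported, with 1 change of sign. The SD was the larger of the groups compared. It exceeds the differences of both drug comparisons, so this limit is wide for them. All 30 numbers of members detected stayed within a set ratio of the value reported. All 30 median correlations stayed within the SD over members. No paired analysis was possible because the number in a title names a library and pairs no samples. E2F1 had more than 2 reads in 12.9% to 42% of the libraries of a group, so 0 reads do not show that a gene is absent.

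With no adjustment for genes detected, the correlation with the G2/M mean was 0.3543, 0.03548, 0.3705, 0.08735 and 0.1609 (Hoechst, benzene Green and Orange, imatinib Green and Orange), and the variance ratio was 5.098 and 5.468 in the benzene run and 5.076 in the imatinib Orange libraries. Without the 3 libraries with a module mean under 2 it was 3.918 in the Hoechst run and 1.532 in the benzene Orange libraries. With all libraries with counts the SD of the module mean in the Hoechst run was 1.462. With a pseudocount of 10 the module mean was 5.883 and 5.924 in the benzene run and 6.662 in the imatinib Green libraries, and its SD was 0.5498, 0.5525, 0.557, 0.2823 and 0.3916, in the order above.

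Counts of members past 2-fold moved most with equal weight of libraries. They were then 0 lower for imatinib, 5 higher and 1 lower for benzene, 10 higher and 3 lower for the Hoechst run against benzene Green, 1 higher and 19 lower against imatinib Green, and 29 lower for benzene Green against imatinib Green, with the shares over all genes given beside these comparisons above. With a pseudocount of 10 they were 0 lower for imatinib, 0 higher and 1 lower for benzene, 3 higher for the Hoechst run against benzene Green and 2 higher against imatinib Green. With all libraries they were 2 higher and 1 lower for benzene and 2 higher for the Hoechst run against imatinib Green, and with median-of-ratios scaling 2 higher for the latter. The shares of all genes were not computed with a pseudocount of 10, with all libraries or with median-of-ratios scaling. These counts therefore cannot tell the members from other genes. The cause was not tested.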
